A study of Dendroctonus valens with 12 samples.

Results

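Each unigene of the red turpentine beetle *Dendroctonus valens* was ranked by how far its lowest adult value stood above its highest larval value, and the 150 unigenes at the top of that ranking are described here. A unigene is a set of assembled transcripts counted as 1 gene. The ranking used FPKM (fragments assigned to a unigene, scaled to its length and to the mapped fragments of the library) as the lowest of 6 adult values plus 1, divided by the highest of 6 larval values plus 1, over 58956 unigenes. The values that set adults against larvae therefore chose the members. They are given as a description, with no test. The comparison of January with May adults was not part of the rule and was tested.

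The 12 libraries came from 4 groups of 3 insects: January adult, May adult, January larva and May larva. The larvae were late instar, and January and May carry the labels cold and normal. Each library was poly(A) RNA of 1 whole field-caught insect, all from a single site in Inner Mongolia with 1 collection day per month. Month, collection day and the weather of that day therefore cannot be told apart. The sources used here give neither the sex of the insects nor their age. In RNA from whole insects, a change in the number of cells of a type and a change of RNA per cell cannot be told apart.

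*D. valens* is a bark beetle whose larvae and adults both pass the winter at the base and roots of pines. In beetles the adult is rebuilt in the pupa. Wings, flight muscle, compound eyes and reproductive organs take their final form there. After emergence the adults fly to a host, bore under the bark, mate and lay eggs in galleries, while larvae feed in the phloem.

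The ratio fell steeply along the list. It was 383 for the first member, had a median of 1.87, and was 1.35 for the last. Only 13 members reached a ratio of 10, and 84 were under 2. The 5 members just inside the limit, DN31429_c0_g1, DN19829_c1_g1, DN20277_c1_g1, DN28801_c0_g1 and DN20891_c2_g3 (the names are written without their TRINITY prefix), had lowest adult values of 0.37, 0.36, 0.36, 0.36 and 1.91 FPKM. The first 4 of these were at 0 in every larva and the last reached 1.15. The 5 just outside had lowest adult values of 1.80, 1.45, 0.72, 5.96 and 4.79 FPKM beside highest larval values of 1.07, 0.82, 0.28, 4.18 and 3.31. The ratios on either side of the limit were close, from 1.34 to 1.35 outside it, while the levels behind them differed.

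**Figure D1:**
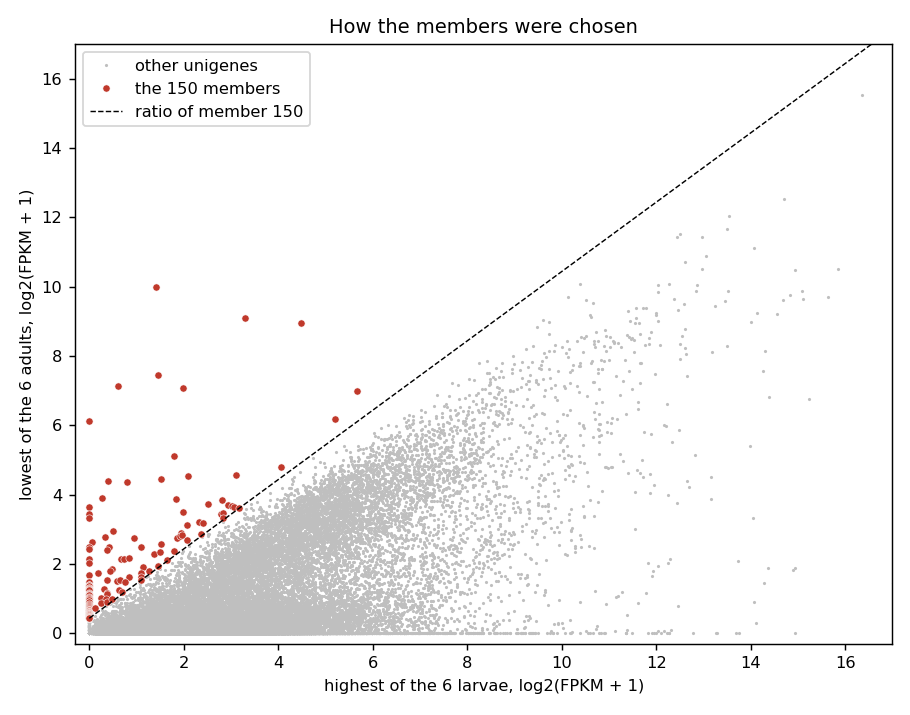
Lowest of the 6 adults against highest of the 6 larvae for each unigene, both as log2(FPKM + 1). The 150 members (red) lie on or above the dashed line at the ratio of the last member, 1.35, and a few stand far above it, while most sit close to the line or on the axis where all larvae are at 0.

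The members were not all specific to adults in the sense of absence from larvae. In 74 members all 6 larvae were listed at 0 FPKM, and in 76 at least 1 larva was above 0. A larva reached 1 FPKM in 44 members and 5 FPKM in 14. DN21478_c0_g1 was the plainest case, with 49.8, 28.5 and 19.2 FPKM in the January larvae against 127 to 286 FPKM in the adults. DN22302_c2_g1 reached 36.0 FPKM in May larva 3 beside a lowest adult of 72.0 FPKM. The members are accordingly called adult-high here.

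Most adult-high unigenes were weakly expressed. Their mean over the 6 adults ran from 0.483 to 11699 FPKM with a median of 7.57, and 22 were under 1 FPKM, 61 from 1 to under 10, 47 from 10 to under 100 and 20 at 100 or more. All 150 were above 0 in every adult library, and in the larvae 60 to 69 were above 0 in January and 39 to 49 in May. The sums of FPKM over all unigenes ran from 787758 to 1788297 per library.

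FPKM carries no read numbers, but low values move in steps of 1 read, and the most frequent ratio between 2 libraries gives their relative depth. By that measure the adults lay between 0.935 and 1.12 of January adult 1 and the larvae between 0.719 and 0.931. The larvae were thus less deeply sequenced than the adults, May larva 2 being the lowest at 0.719. The values of May larvae 1 to 3 rest on only 224, 72 and 92 unigenes at the most frequent ratio. The part of the depth gap in the larval zeros of the weakest members was not tested. A listed 0 says only that no fragment was assigned.

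**Figure D2:**
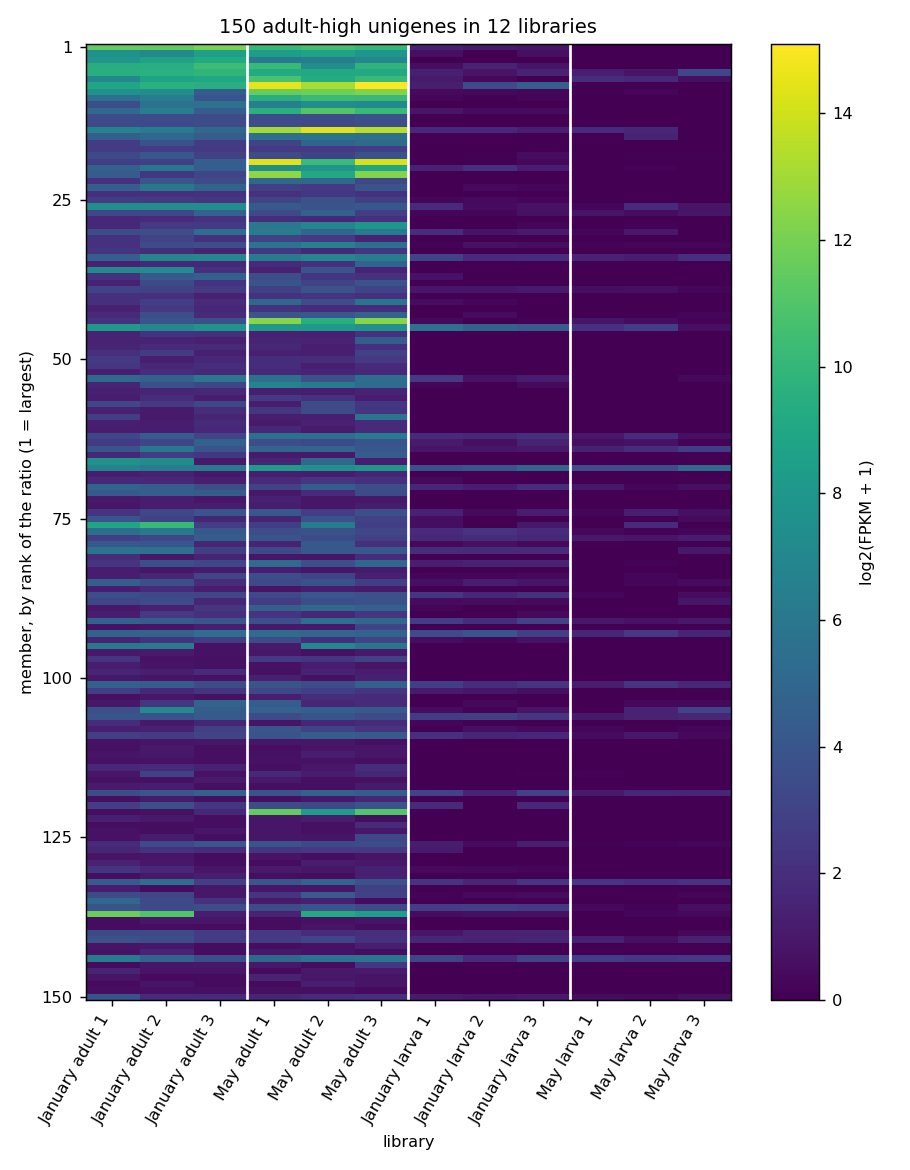
The 150 members (rows, by rank of the ratio) in the 12 libraries (columns), colour giving log2(FPKM + 1). The 6 adult columns are above 0 throughout, the brightest rows lie in the May adults, and the larval columns are dark apart from scattered faint rows, more of them in January.

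As a share of all FPKM in a library the members made up little of January adults and far more of May adults. The share was 1.16%, 1.21% and 0.957% in January adults 1 to 3 and 9.81%, 5.998% and 11.7% in May adults 1 to 3. The lowest May adult was well above the highest January adult. In larvae it was 0.0169%, 0.0132% and 0.0153% in January and 0.00417%, 0.00642% and 0.00519% in May. A few members carried the adult sums, since the top 5 of each library held 63.7% to 82.3% of them. With the 5 members of highest adult mean left out, the January adults held 0.811%, 0.842% and 0.491% and the May adults 2.31%, 1.63% and 2.63%, and the months still did not overlap.

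The first 2 members belong to the same assembly component, so that they may share reads. DN21283_c0_g2 had the largest ratio, with 2807, 2724 and 4225 FPKM in January adults and 1044, 1449 and 1018 FPKM in May adults against at most 1.66 FPKM in a larva. All January adults were above all May adults, yet its log2 fold change of 1.46 ± 0.39 (SE) missed the call (adjusted p = 0.0113). DN21283_c0_g1 had 208, 139 and 360 FPKM in January and 346, 428 and 245 FPKM in May, months that overlap (log2 fold change -0.60 ± 0.50, adjusted p = 0.353). The pair thus had fitted differences of opposite sign between the months, neither of them called, and the difference between the pair was not tested. Neither has an annotation in the tables read here.

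Tests of January against May adults were made with limma on log2(FPKM + 1) over 23423 unigenes that reached 1 FPKM in at least 3 of the 6 adults. A call needed an adjusted p under 0.01 and a log2 fold change no smaller than 1 in either direction, positive values being higher in January. Of the 150 members 130 entered the test, and 20 stayed out for low values. Because the rule keeps out unigenes near 0 in any adult, the members are set beside 2 backgrounds, all unigenes tested and the 12873 of them whose lowest adult value was at least 0.36 FPKM, the lowest among the members.

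Of the 130 members tested, 18 were called (13.8%), against 32.6% of all unigenes tested and 18.4% of those present in every adult. Only 2 members were called higher in January (1.54%, against 28.3% and 14.9%), while 16 were called higher in May (12.3%, against 4.3% and 3.46%). The members' share of January calls thus lay below both backgrounds in this fit and their share of May calls above both, as a description, since shares were not tested against each other. Their median log2 fold change was -0.13, against 1.02 over all unigenes tested and 0.46 over those present in every adult. The comparison with all unigenes turned round when certain insects were left out. Without January adult 2, 8 of 124 members were called against 0.578% of all unigenes tested, without January adult 1, 11 of 122 against 2.55%, and without May adult 3, 14 of 123 against 8.9%. That the overall median lies at 1.02 depends on the scaling. When the adult libraries were scaled by the median of ratios it was 0.06, the members' median was -1.14, 25 members were called higher in May and 1 in January, and the calls over all unigenes were 3387 higher in January and 2939 higher in May in place of 6624 and 1008.

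Non-overlap gave a like picture. The months did not overlap in 39 of the 130 members, against 58.2% of all unigenes tested and 47.1% of those present in every adult. In 30 every May adult was above every January adult (13.0% of all unigenes tested and 15.2% of those present in every adult), and in 9 every January adult was above every May adult (45.2% and 31.9%). All 18 called members had months that did not overlap. Unadjusted p by limma was under 0.05 in 34 of the 130 members. The share of all unigenes tested at that level is not given here, but it cannot be below the 32.6% that were called.

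**Figure D3:**
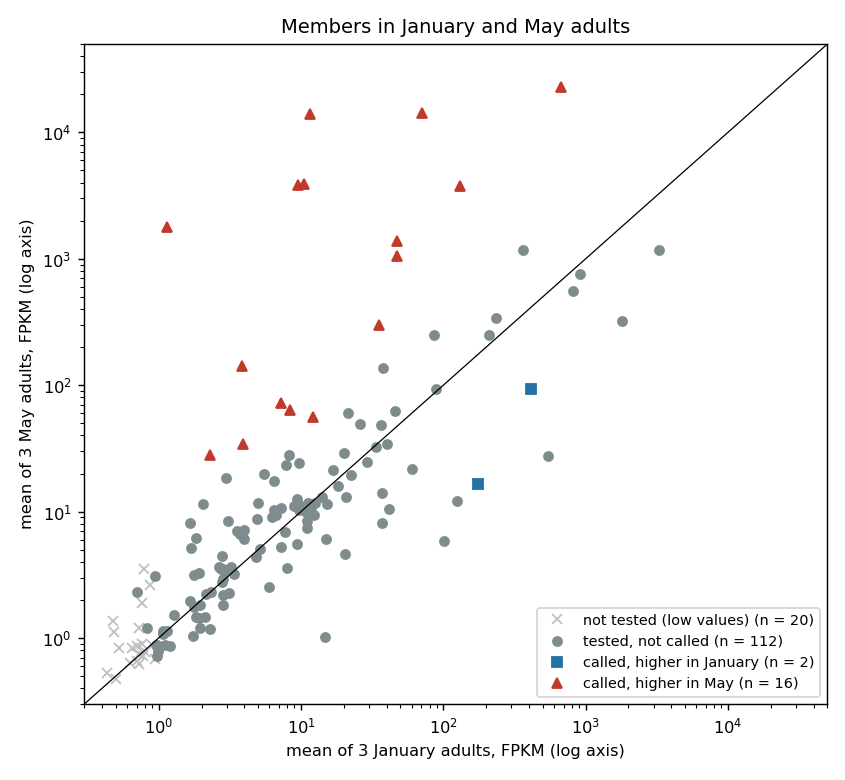
Mean FPKM of the 3 January adults against that of the 3 May adults for each member, on log axes, with the line of equality. The 16 members called higher in May (red triangles) lie far above the line, at January means from 1.14 to 671 FPKM. The 2 called higher in January (blue squares) lie below it, and 112 tested members were not called.

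The largest differences between the months were in 4 members without annotation in which the May adults came in the same order. DN17115_c0_g1 had 5.84, 6.25 and 22.7 FPKM in January adults and 22135, 1226 and 18710 FPKM in May adults (log2 fold change -9.56 ± 1.04, adjusted p = 0.00148). DN26112_c0_g3 had 0.48, 0.59 and 2.34 FPKM in January and 2904, 358 and 2089 FPKM in May (-9.35 ± 0.79, adjusted p = 0.000879), with every larva at 0. In both, May adult 2 was several-fold below the other May adults and still far above all January adults.

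DN21259_c0_g1 had the same order of May adults, with 3.54, 13.3 and 11.7 FPKM in January and 5467, 695 and 5414 FPKM in May (-8.19 ± 0.84, adjusted p = 0.00143). So did DN21950_c1_g3, with 19.3, 4.41 and 7.95 FPKM in January and 6133, 554 and 5068 FPKM in May (-8.02 ± 0.91, adjusted p = 0.00162). Among the January adults the order differed, adult 1 being the lowest in the first 3 of these members and the highest in DN21950_c1_g3. These 4 members were called in all 14 other fits tried. By the ratio of mean FPKM they were 1210, 1569, 406 and 371 times higher in May, in the order given. The range among the 3 May adults alone was 18.1-fold for DN17115_c0_g1, so the size of the difference is less firm than its direction.

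DN22834_c1_g1 was the most abundant member, with a mean of 671 ± 155 FPKM (SD, n = 3) in January adults and 22728 ± 12982 FPKM in May adults. Its 3 values were 495, 790 and 726 FPKM in January and 24097, 9115 and 34971 FPKM in May, 33.9 times higher on the means (log2 fold change -4.91 ± 0.52, adjusted p = 0.00148). It was also above 0 in the January larvae, at 1.42, 10.6 and 21.4 FPKM, and at 0 in all May larvae. In adults it was thus higher in May, while in larvae it was listed above 0 in January only.

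DN21961_c4_g1 had 107, 72.4 and 33.4 FPKM in January adults and 8632, 22038 and 12019 FPKM in May adults, 200.4 times higher (-7.67 ± 0.55, adjusted p = 0.00054). Here May adult 2 was the highest insect, unlike in the previous members. DN26724_c0_g3 also peaked in May adult 2, with 34.5, 87.0 and 19.6 FPKM in January and 768, 2136 and 1214 FPKM in May (-4.97 ± 0.63, adjusted p = 0.00187). Both were called in all 14 other fits.

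Muscle actin was the called member with the clearest identity. DN22247_c2_g1 has as its best protein match the muscle actin of the flour beetle *Tribolium castaneum*, the protein of the thin filament on which myosin pulls. It had 210, 165 and 19.98 FPKM in January adults, 3081, 3407 and 4796 FPKM in May adults and at most 0.31 FPKM in any larva. The months did not overlap and differed 28.5-fold on the means (log2 fold change -5.35 ± 0.79, adjusted p = 0.00205). The call was lost with January adult 2 left out and with 0.01 added in place of 1 (adjusted p up to 0.0118 over the 14 other fits, the lowest being 0.0014). Actin genes are near-identical copies of each other, and how the reads of DN22247_c2_g1 were divided among them is uncertain.

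DN24847_c0_g1, matched to a hypothetical protein of the mountain pine beetle *Dendroctonus ponderosae*, had 45.4, 81.5 and 14.1 FPKM in January adults and 748, 1225 and 1188 FPKM in May adults (-4.74 ± 0.64, adjusted p = 0.00189). Like muscle actin it was lowest in January adult 3 and had larval values near 0, at most 0.20 FPKM. DN24344_c0_g1 completes the 10 largest differences, with 2.36, 4.60 and 4.58 FPKM in January and 63.0, 116 and 244 FPKM in May (-4.70 ± 0.60, adjusted p = 0.00187). It lost its call without January adult 2 (adjusted p up to 0.0114 over the other fits). The other 6 members called higher in May had fold changes from -3.29 to -2.20 on the log2 scale, means of 2.31 to 35.2 FPKM in January and of 27.9 to 300 FPKM in May. All 6 lost their call without January adult 2 and with 0.01 added in place of 1, and of the 14 other fits DN26540_c0_g1 was called in 3 and DN18459_c0_g1 in 4.

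Of the 2 members called higher in January, DN24066_c1_g1 was the firmer. It had 183, 171 and 171 FPKM in January adults and 18.6, 13.6 and 16.96 FPKM in May adults, a tight pair of groups (log2 fold change 3.35 ± 0.45, adjusted p = 0.00187). It lost its call only without January adult 2 (adjusted p = 0.0141, the highest of the 14 other fits). DN19219_c0_g1 had 234, 416 and 589 FPKM in January and 68.3, 81.7 and 128 FPKM in May (2.10 ± 0.51, adjusted p = 0.00808), and every larva was at 0. Its months did not overlap, but the call was lost in each of the 14 other fits, where the adjusted p ran from 0.0102 to 0.204.

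**Figure D4:**
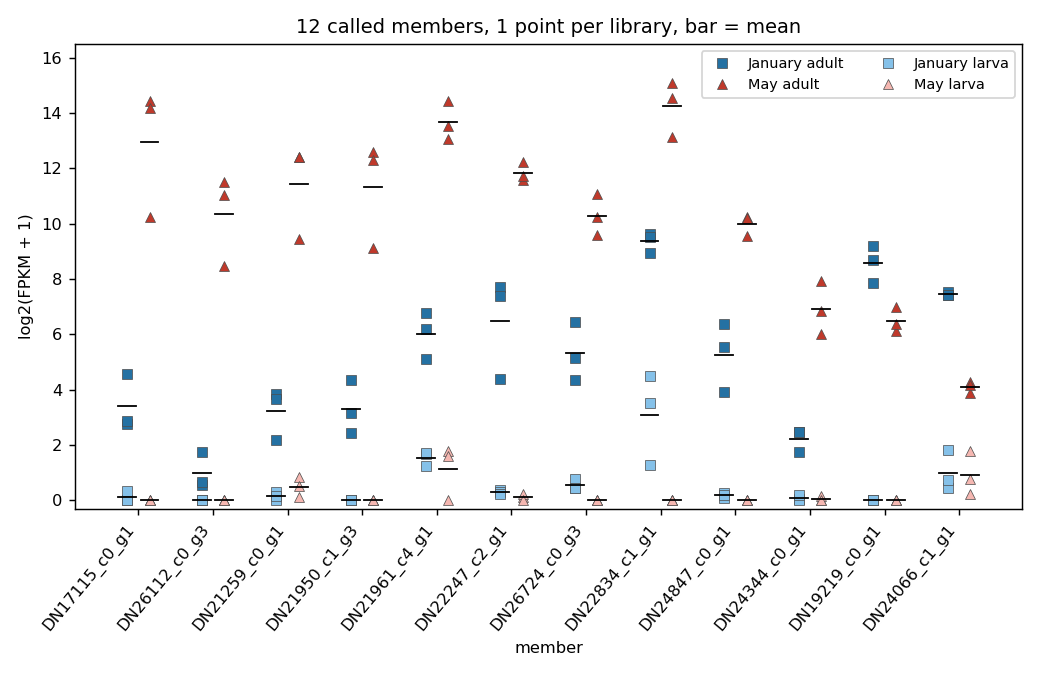
log2(FPKM + 1) of the 12 called members with the largest differences in all 12 libraries, 1 point per library and a bar at the mean of each group. The first 10 members, from DN17115_c0_g1 to DN24344_c0_g1, have all May adults (red triangles) above all January adults (blue squares), the last 2 have the reverse, and the larvae (pale symbols) lie near 0 except for DN22834_c1_g1, DN21961_c4_g1 and DN24066_c1_g1.

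The remaining members among the 10 of largest ratio were not called. DN21212_c0_g1 had 680, 730 and 1322 FPKM in January adults and 1217, 174 and 891 FPKM in May adults, months that overlap. DN23249_c0_g3 was the steadiest abundant member, at 692, 813 and 928 FPKM in January and 587, 553 and 542 FPKM in May (log2 fold change 0.52 ± 0.39, adjusted p = 0.292). Its months did not overlap, with January above May. It was above 0 in all larvae, from 0.74 to 8.77 FPKM.

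DN26962_c1_g5 had 133, 437 and 525 FPKM in January and 1763, 633 and 1145 FPKM in May, groups that did not overlap (-1.79 ± 0.62, adjusted p = 0.0358). DN22009_c2_g1 had 11.4, 49.6 and 51.5 FPKM in January and 86.5, 178 and 145 FPKM in May (-2.04 ± 0.65, adjusted p = 0.0262), with every larva at 0. These fitted differences missed the threshold at 3 insects a month.

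Several members differed widely among the insects of 1 month. The fold range among the 3 insects of a month reached 10 in 10 members in January adults and in 12 in May adults, 18 members in all, while the median member ranged 2.44-fold and 2.23-fold. The share of all unigenes with such a range is not given here. Called members were among the 18, such as DN17115_c0_g1, 18.1-fold among the May adults but 1210 times higher in May on the means. The 4 widest of the 18 were picked for their range after their values were seen. DN20845_c0_g3 had 3361, 2039 and 1.27 FPKM in January adults 1 to 3 and 1.70, 600 and 362 FPKM in May adults 1 to 3. DN20974_c1_g1 had 211, 163 and 1.04 FPKM in January and 1.97, 33.3 and 1.32 FPKM in May.

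DN18797_c0_g1 had 465, 1166 and 5.78 FPKM in January and 5.88, 71.4 and 5.84 FPKM in May. DN23498_c0_g2 had 68.2, 69.5 and 0.66 FPKM in January and 1.12, 129 and 56.9 FPKM in May. In each of the 4, January adults 1 and 2 and May adult 2 were high and January adult 3 and May adult 1 low, while May adult 3 was low in DN20974_c1_g1 and DN18797_c0_g1 and stood at 362 and 56.9 FPKM in the other two. None of these 4 was called between the months by limma (0 at an unadjusted p under 0.05 too). The range they were picked for also widens the standard error, so a call was unlikely from the start. DN20974_c1_g1 and DN18797_c0_g1 were each called in 1 of the 14 other fits. The highest adult value of a member lay in May adult 3 for 34 members and in January adults 1 and 3 for 20 each, and the lowest lay most often in January adults 3 and 1, for 43 and 38 members.

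At the other end, 15 members at 0 in all larvae stayed within 2-fold over all 6 adults, against 4 of the members above 0 in a larva. Over all 21685 unigenes above 0 in every adult, 473 (2.18%) stayed within 2-fold, and of the 174 of them at 0 in all larvae 16 did. These groups were drawn after the values were seen and rest on the values of the rule, so they are a description. DN22338_c0_g4 had 9.12, 9.38 and 10.6 FPKM in January adults and 10.8, 9.67 and 10.7 FPKM in May adults. DN17491_c0_g1 had 10.4, 9.80 and 9.87 FPKM in January and 10.3, 10.4 and 12.5 FPKM in May. DN18028_c0_g1 had 5.34, 5.37 and 4.79 FPKM in January and 4.87, 4.62 and 5.70 FPKM in May.

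The 15 members stayed within 2-fold in 6 wild insects of both months and were listed at 0 in every larva. Some came close to that limit, such as DN7316_c0_g1, from 1.39 to 2.77 FPKM in the adults. Their adult means ran from 0.483 to 10.5 FPKM, and none has an annotation in the tables read here. The members at 0 in all larvae as a whole were weak (median adult mean 1.80 FPKM, 55 of 74 under 10 FPKM in every adult), and those above 0 in a larva were stronger (median 17.6 FPKM, 8 of 76 under 10 FPKM). Of the 18 called members 15 were above 0 in a larva.

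**Figure D5:**
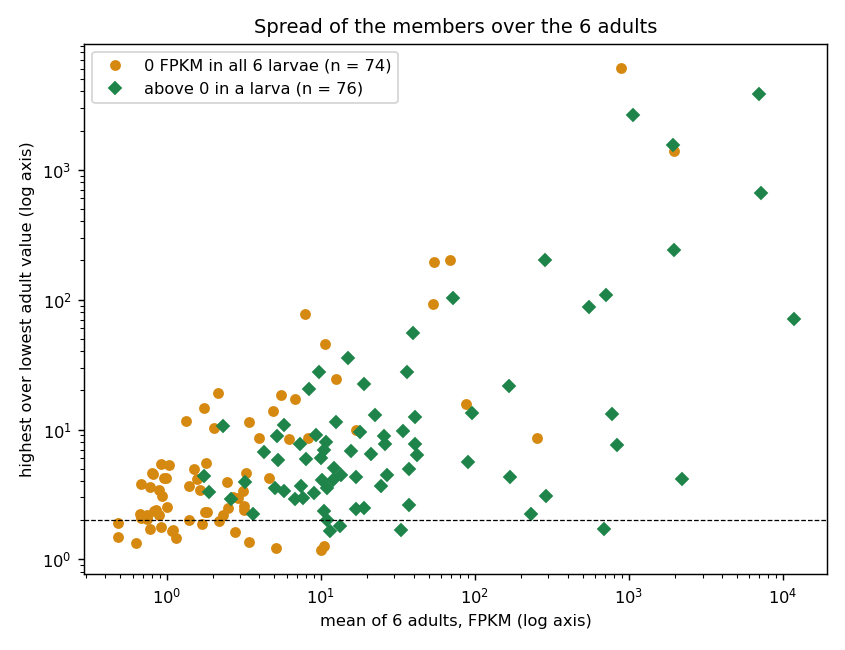
Highest over lowest adult value against the mean of the 6 adults for each member, on log axes, with a dashed line at 2-fold. Below the line lie 15 of the 74 members at 0 in all larvae (orange circles), all with means of at most 10.5 FPKM, and 4 of the 76 above 0 in a larva (green diamonds), while the widest ranges belong to members with means above 100 FPKM.

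Identity could be given for few members. Of the 150, 12 had a row in the part of the protein match table read here (8% of members, 3.39% of all unigenes), and 1 more had a row without a description in another table. A further 137 had no row in either, which says nothing of whether they have a match. Beside muscle actin, the hypothetical protein above and DN25925_c0_g1, matched to a *D. ponderosae* protein named unknown, 9 members had a described match.

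Of these, 5 matched beetle proteins and were not called. DN26083_c0_g1 matched a glucose dehydrogenase-like enzyme, a flavoprotein that oxidizes glucose, and had 5.43, 4.98 and 4.27 FPKM in January adults and 7.70, 12.4 and 6.21 FPKM in May adults (log2 fold change -0.68 ± 0.49, adjusted p = 0.281). DN23284_c1_g1 matched the zinc transporter ZIP1, of a family that brings zinc into the cytoplasm, with 7.21, 6.96 and 4.60 FPKM in January and 6.16, 13.6 and 7.42 FPKM in May (-0.42 ± 0.51, adjusted p = 0.528). The months of the first did not overlap, and those of the second did.

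DN19178_c0_g1 matched the synaptic vesicular amine transporter, which loads monoamines such as dopamine into vesicles, with 3.91, 8.54 and 15.3 FPKM in January and 15.9, 5.60 and 11.9 FPKM in May. DN25739_c1_g1 matched CAP-Gly domain-containing linker protein 1, which binds growing microtubule ends, with 28.1, 23.2 and 10.7 FPKM in January and 6.51, 21.2 and 11.4 FPKM in May. DN24980_c0_g1 matched neurogenic protein mastermind, a Notch coactivator in *Drosophila*, with 24.2, 19.8 and 10.4 FPKM in January and 13.7, 9.96 and 24.1 FPKM in May. In all 3 the months overlapped, and all larvae were above 0, up to 5.92 FPKM for the mastermind match.

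The other 4 described members had best matches outside the insects and were at 0 in every larva. DN18227_c0_g1 was matched to MN-Beta2 of the sea bass *Dicentrarchus labrax*, with 4.20, 2.25 and 2.93 FPKM in January adults and 2.89, 1.39 and 2.49 FPKM in May adults. DN7767_c0_g1 was matched to somatolactin alpha of the grass carp *Ctenopharyngodon idella*, a pituitary hormone of fish, with 1, 0.80 and 0.68 FPKM in January and 1.48, 0.60 and 1.51 FPKM in May. DN21802_c2_g1 and DN21802_c1_g2, of 1 component, were matched to chlorophyll a-b binding protein 40, a light-harvesting protein of chloroplasts, in a record of the nematode *Trichinella nelsoni*, and ran from 0.97 to 1.96 and from 0.60 to 1.32 FPKM. None of the 3 that were tested was called by limma (0 at an unadjusted p under 0.05). The study's text speaks of nematode sequences that were deleted and counts fewer unigenes than the deposited values hold. Every deposited unigene was ranked here, and whether these members come from the beetle was not tested.

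These 4 were all of the members at 0 in every larva that had a row in the match table, whereas the 8 members with a row that were above 0 in a larva all matched insect proteins. Over all its rows, 1421 (71.1%) matched a *Dendroctonus* protein, 116 (5.80%) a vertebrate protein and 10 a chloroplast protein, classes drawn up after the matches of the members were seen. Above 0 in every adult and at 0 in every larva were 0 of the 1421, 4 of the 116 and 3 of the 10. So was 1 of the 452 rows with other matches, and 8 over all rows. The pattern was not confined to adults among the vertebrate matches. Of the 116, 21 were above 0 in adults only, 27 in January larvae only and 4 in May larvae only. For the chloroplast matches these counts were 5, 2 and 1, and for the *Dendroctonus* matches 73, 9 and 3. Relatives in the same components went both ways. DN18227_c0_g3 and DN21802_c1_g4, members without a row in that table, were also at 0 in every larva, with adult means of 1.76 and 2.79 FPKM. In contrast, DN18227_c0_g2, matched to hemoglobin subunit beta-2, had 7.46, 0.30 and 0.27 FPKM in January larvae, and DN21802_c1_g6, matched to the same chlorophyll binding protein, had 0.84, 0.82 and 0.61 FPKM there. These last unigenes were at 0 in all adults and all May larvae. DN24025_c2_g1, matched to a photosystem protein of chloroplasts, lies in the component of another member, DN24025_c2_g10. It had 1.31, 1.30 and 0.38 FPKM in the May larvae and was at 0 in all January larvae and in January adult 3.

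Of the 150 members, 22 lay in 10 components with 2 or 3 members each, so that the 150 unigenes came from 138 components and some may be pieces of 1 transcript. DN24344_c0_g1, called higher in May, has the partner DN24344_c0_g2, which was not called (log2 fold change -1.34). The larval levels also differed by month. Of the 76 members above 0 in a larva, 62 had their highest larva in January and 14 in May. The May larvae 2 and 3 had 13369 and 13514 unigenes above 0, against 24626 to 35383 in the other larvae. The part of that difference in the larval levels of the members was not tested.

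Genes of known roles were set beside the members through keyword lists over the 2 partial annotation tables, of which the smaller was chosen by the study on these libraries, so these counts are not independent evidence of a direction. Muscle was the list with a member, the actin above. Of its 14 tested unigenes 5 were called higher in May and 0 in January by limma (8 and 2 at an unadjusted p under 0.05, median log2 fold change -1.64), and 2 of the 8 outside the chosen table were, the actin and a match of the muscle M-line protein unc-89 (DN27091_c0_g2, a mean of 1.15 FPKM in January and 22.4 in May, log2 fold change -3.52, adjusted p = 0.00205). The troponin I match DN26658_c1_g1 was not called, with means of 1059 FPKM in January and 630 FPKM in May. These 2 had ratios of the rule of 0.478 and 0.179, that is, the highest larva above the lowest adult. The largest difference of the list was in a muscle myosin heavy chain match from the chosen table, DN25111_c1_g1. Its means were 23.4 FPKM in January and 1155 FPKM in May (log2 fold change -5.96, adjusted p = 0.00187 by limma). With a ratio of 0.0081 it was far from adult-high. The list also took in 2 chromatin proteins named for actin, neither of them called. These were the 2 unigenes higher in January at an unadjusted p under 0.05 by limma (log2 fold changes 1.74 and 2.44, adjusted p = 0.0382 and 0.0202). Also in the list was DN20419_c4_g1, matched to an actin cytoskeleton-regulatory protein but with an insect cuticle protein domain. That unigene was 1 of the 5 called higher in May by limma (log2 fold change -3.75, adjusted p = 0.00381). It is counted again under cuticle and chitin.

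No other list held a member. The digestion keywords also took in proteins of other roles, such as glucan-binding proteins, a heparanase and a lysosomal alpha-mannosidase. Of the digestion list 35 of 59 tested were called higher in May and 4 in January (55 of the 64 listed came from the chosen table). For detoxification the counts were 10 and 4 of 32, for cuticle and chitin 4 and 2 of 9, for hormones 4 and 0 of 12 (7 and 0 at an unadjusted p under 0.05), for energy metabolism 5 and 1 of 19, and for mobile elements 4 and 2 of 15, again higher in May first. Of reproduction 2 were tested and of chemosensory and visual proteins 1, with 0 called by limma and, at an unadjusted p under 0.05, 0 and 1.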

How the data were processed

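RNA-seq of 12 single whole insects was used, 3 per group of stage and month. The sample labels give the stage and mark each insect as cold or normal, and the study's methods tie these marks to January and May. Trimming was by SeqPrep and Sickle, the de novo assembly by Trinity, and its filtering by TransRate and CD-HIT. Per the submitters' processing notes, base calling used CASAVA, and reads were placed with Bowtie2 2.3.5.1 and quantified with RSEM 1.2.31. Each deposited file holds, for 1 library, FPKM per unigene as computed by the authors, rounded to hundredths, with no scaling between libraries stated. Without a genome, fragments of 1 transcript can appear as several unigenes.

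Members were taken by the ratio described in the report. The members, the lists and the tests were chosen with earlier results of these data known. January and May adults were compared with limma 3.58.1 (R 4.3.3), with the trend option, on log2(FPKM + 1), for unigenes with at least 1 FPKM in at least 3 of the 6 adults. Fold changes are on that scale, which understates the change of low unigenes. Tests were two-sided, with Benjamini-Hochberg adjustment over all 23423 unigenes tested and the calling thresholds given in the report. The fit was tested on simulated data. Tables and figures were made with Python 3.11.15, pandas 2.3.3, numpy 2.4.6 and matplotlib 3.10.9.

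Named members were the 10 of largest ratio, up to 10 higher and 10 lower called members with months that did not overlap, the 5 of highest adult mean, those with a described protein match, and the 5 just inside the limit. Keyword lists (muscle, cuticle and chitin, chemosensory and visual, detoxification, digestion, energy, reproduction, hormones, mobile elements) were matched at the start of a word. Only parts of the annotation tables were used. The study's own fold changes and p-values were not used. Read numbers are not given with FPKM, so precision rests on the spread among 3 insects, and relative depth was read from unigenes between 0.2 and 2 FPKM in both libraries, in bins of 0.04 on the log2 scale. Sequences of the members are not used here. Alternatives were 2 other added values, no filter, a replicate block, other thresholds, a fit of all 12 libraries, 3 scalings and leaving out each adult.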

Additional observations from a re-analysis of the deposited data

How the results depend on the processing

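No result changed direction under the alternatives tried where it was called. The 18 members called became 10 with 0.01 added and 28 at an adjusted p under 0.05. Those higher in January fell from 2 to 1 with 0.1 or 0.01 added, with no filter, with all 12 libraries in one fit and under each of the 3 scalings, and were 7 at an adjusted p under 0.05. Those higher in May were 9 with 0.01 added and 25 under median-of-ratios scaling, in place of 16. Except for median-of-ratios scaling, the calls over all unigenes at these settings are not given here. These counts therefore describe the members alone and do not set them against a background. The members' median log2 fold change of -0.13 became -1.14 under median-of-ratios scaling, -0.41 with an equal FPKM sum per library and -0.80 when that sum left out the 20 most abundant unigenes, and the medians over all unigenes tested became 0.06, 0.74 and 0.42. With 1 adult left out, 8 to 21 members were called, 0 to 6 higher in January and 8 to 15 higher in May, and the median ran from -0.25 to -0.15. The lowest count, 8, came without January adult 2, where 0.578% of all unigenes tested were called. Without January adult 1 it was 11 members and 2.55%, and without May adult 3 it was 14 members and 8.9%. The count of 6 higher in January came without January adult 3. Of the 18 called members, 8 were called in all 14 other fits. Without January adult 2 the other 10 lost their calls, namely DN22247_c2_g1, DN24066_c1_g1, DN24344_c0_g1, DN19219_c0_g1 and the 6 members with the smallest called differences in favour of May. The cause was not tested. The rule itself kept 120 of 150 members on median-of-ratios scaled values, 137 on equal sums, 112 with 0.1 added and 119 with 10 added.

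Groups share replicate numbers, but the numbers did not pair the insects. The deviations of same-numbered January and May adults correlated at -0.32, 0.08 and -0.04, and no adult correlated best with its own number. With the replicate number as a block 16 members were called, 2 higher in January and 14 higher in May, 15 of them among the 18, and the members' median was -0.13.

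The 20 members not tested were under 1 FPKM in at least 4 of the 6 adults, which is what the filter leaves out. The part of depth in their low values was not tested.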
